A study of Homo sapiens with 4 samples.

Results

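Autophagy is the process by which a cell wraps part of its cytoplasm in a double membrane, the autophagosome, and delivers it to lysosomes for digestion. The ULK kinase complex starts the process, the class III PI3-kinase complex marks the membrane, a ubiquitin-like conjugation system attaches ATG8 proteins (the LC3 and GABARAP families) to the membrane lipid, and cargo receptors such as SQSTM1 (p62) tether ubiquitinated cargo to those ATG8 proteins. Many of these genes can be raised under stress by transcription factors including TFEB, FOXO3, NFE2L2, ATF4 and DDIT3 (CHOP), and SQSTM1 is a substrate of autophagy as well as a receptor in it, so its RNA and its protein need not move together. A transcript level is not a measure of autophagic flux, which RNA sequencing does not record.

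The 10 genes described here were a list of autophagy genes taken by symbol, namely SQSTM1, MAP1LC3B, GABARAPL1, ULK1, WIPI1, ATG5, ATG12, ATG16L1, BECN1 and TFEB, out of 32955 genes in the expression table. All 10 were listed, and all 10 were among the 13871 genes with a mean of at least 1 RPKM (reads per kilobase of exon, scaled to the library's total) that entered the tests. The 4 libraries came from MDA-MB-231, an established triple-negative breast cancer cell line with a mesenchymal appearance. They comprised 2 libraries from cells transfected with mimic NC, a negative control for microRNA mimics, and 2 from cells transfected with a miR-217 mimic, and in each group the titles numbered the libraries 1 and 2. The study made this experiment to look for target genes of miR-217. The time between transfection and harvest and the mimic dose are not given in the sources used here. Nothing in the labels says that the libraries came from separate cultures, so the p-values measure only the spread between these libraries, which may be technical. The labels also do not say what a number marks (a day, a passage or another unit).

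Reads counted to genes, as recovered from the RPKM values, came to 32635814 to 57933183 per library, and reads outside genes are not known. These totals are sums over genes, so a read on bases shared between genes may be in them more than once. Both libraries numbered 2 (47374957 and 32635814 reads) had fewer than both numbered 1 (57933183 and 53356283 reads). In a principal component analysis of the tested genes, the first component carried 71.3% of the variance and placed the libraries numbered 1 at -19.7 and -17.3 and those numbered 2 at 12.2 and 24.8. All 10 genes taken as markers of the line were detected, with VIM at 27.9 to 36.9 RPKM and EGFR at 19.5 to 22.7 RPKM, while ESR1 and GATA3 stayed at or below 0.104 RPKM. Of the other luminal or epithelial markers, EPCAM was present at 3.9 to 7.41 RPKM and FOXA1 at 1.3 to 1.7 RPKM. CDH1 (0.169 to 0.433 RPKM) and KRT19 (0.416 to 0.944 RPKM) were lower, and PGR was not listed. CDKN2A, generally described as deleted in this line, measured 10.5 to 13.2 RPKM, so not all markers went with the label.

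Because the libraries carried a mimic of miR-217, its sequence and its matches in the members are shown first. The mature miR-217-5p is encoded on the minus strand at chr2:55983020-55983042 (RefSeq, GRCh38.p14), with its seed, bases 2 to 8, in capitals.
hsa-miR-217-5p: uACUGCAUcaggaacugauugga
A target site with full seed pairing reads ATGCAGT in the RNA's DNA letters, and the longest annotated 3'UTR of 1 of the 10 members held it (GENCODE 29). This was ATG12, with 1 match at chr5:115829231-115829237 on the minus strand, bases 2567 to 2573 of its 3'UTR. ATG5 held 2 matches to TGCAGTA, the site that pairs with bases 2 to 7 and carries an A after them, at chr6:106185510-106185516 and chr6:106184718-106184724 on the minus strand. The matched letters are in capitals.
ATG12: aatctcttttcATGCAGTttctgcttcat
ATG5, first match: tgtctcttgacTGCAGTAccttttcttta
ATG5, second match: tgtcaggccttTGCAGTAggcttgagtga
The other 8 members held no match of either kind. ATGCAGT was present in 14.5% and TGCAGTA in 13.1% of the 3'UTRs of 9908 tested genes, beside 1 of 10 members for each. A match is a description of letters and not a measured site.

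The members covered a wide range of levels per length. SQSTM1 was the highest in every library, at 25.8 to 42.3 RPKM, and BECN1 followed at 12.5 to 15.4 RPKM. GABARAPL1 (6.73 to 10.9 RPKM) and MAP1LC3B (7.07 to 9.17 RPKM) overlapped each other and stood below BECN1. WIPI1 came next at 5.32 to 5.68 RPKM. ATG12, ATG16L1, ATG5 and ULK1 then overlapped one another between 3.13 and 4.7 RPKM, and TFEB was the lowest at 1.56 to 2.1 RPKM. The thinnest count behind any of these values was 287 reads, for TFEB in the second miR-217 mimic library, where counting error alone is 5.9% of the value; for SQSTM1 the fewest reads were 9697, with a counting error of 1.02%.

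**Figure D1:**
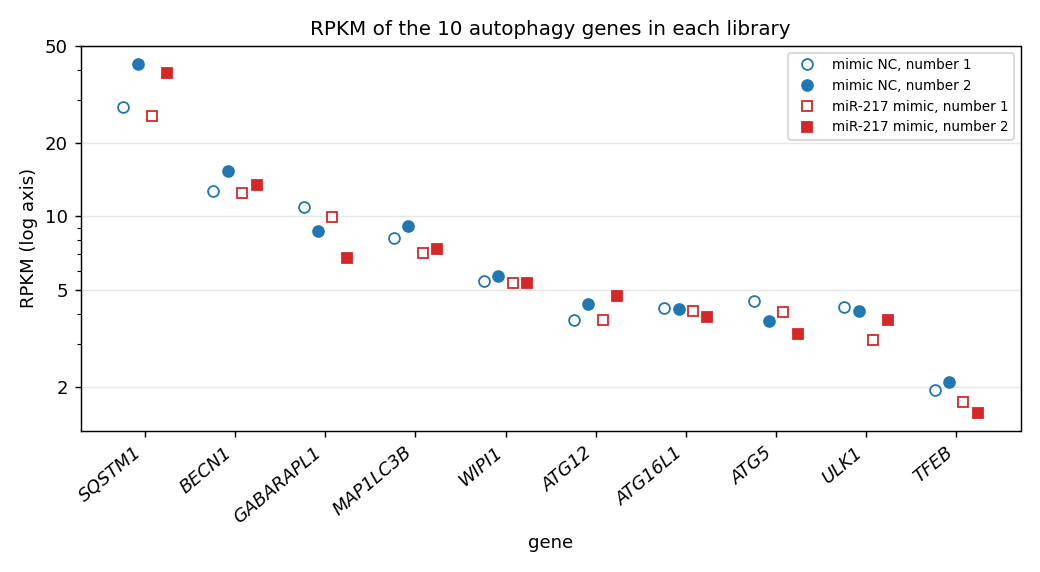
Level of each of the 10 autophagy genes in the 4 libraries, in RPKM on a log axis, ordered from left to right by the mean; each point is 1 library, blue circles mimic NC and red squares miR-217 mimic, open for number 1 and filled for number 2. For SQSTM1 both filled points (42.3 and 38.8 RPKM) lie above both open ones (28.1 and 25.8 RPKM), and for GABARAPL1 they lie below.

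The first comparison set the libraries numbered 2 against those numbered 1. It was tested for all 13871 genes with limma on log2(RPKM + 1), with the transfection group as a term, and a gene was called at a Benjamini-Hochberg adjusted p under 0.05. Of the 10 members, 1 was called higher (SQSTM1) and 0 were called lower, beside 3.69% of all genes tested called higher and 4.69% called lower (512 and 651 genes, and 780 and 749 with median centring, so that more were then higher than lower). The members' median difference was 0.052 on the log2 scale, against -0.035 over all genes tested. In 3 members (SQSTM1, ATG12 and BECN1) both libraries numbered 2 exceeded both numbered 1, and in 2 (GABARAPL1 and ATG5) both were below, beside 26.9% and 35.5% of all genes. With 2 libraries on each side, the smallest p that an exact permutation test allows for a single gene is 0.333 if the group is ignored. It is larger if libraries are exchanged only within a group. The calls therefore rest on the spread that limma shares across genes.

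SQSTM1 lies on the plus strand at chr5:179806398-179838078 (hg38) and encodes the receptor that binds ubiquitinated cargo and LC3. It measured 28.1 RPKM in mimic NC 1, 42.3 in mimic NC 2, 25.8 in miR-217 mimic 1 and 38.8 in miR-217 mimic 2. The 2 groups overlapped, whereas the 2 numbers did not. SQSTM1 was higher in number 2 by 50.6% (40.5 ± 2.44 against 26.9 ± 1.61 RPKM, SD, n = 2 each), a log2 difference of 0.57 with a standard error of 0.07, a 95% interval of 0.40 to 0.75 and an adjusted p of 0.03 in limma. The difference was 0.57 within mimic NC and again 0.57 within miR-217 mimic, and it ranked 366 from the top among the 13871 genes. The call was lost, with limma's adjusted p at 0.211, when mimic NC 1 was left out (log2 difference 0.63), at 0.237 when miR-217 mimic 1 was left out (0.51), and at 0.115 when the filter on low genes was dropped (0.57). Of the gene's 7654 exon bases, 22% were shared with genes on the other strand, 1582 of them with C5orf45 and 105 with MGAT4B. C5orf45 measured 3.6 and 3.49 RPKM in number 1 and 4.16 and 5.09 RPKM in number 2, MGAT4B 12.9 and 12.2 RPKM against 13.9 and 14.9 RPKM. The libraries were made with a stranded kit, but the strand setting of the counting is not given in the sources used here, and the part of the shared bases in SQSTM1's difference was not tested. A level in bulk RNA cannot separate more RNA per cell from more cells that express a gene; these cannot be told apart here.

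The ATG8 proteins are the hooks that receptors such as SQSTM1 grasp. MAP1LC3B, at chr16:87383995-87404779 on the plus strand, encodes LC3B, the common marker of autophagosomes. It measured 8.19 and 9.17 RPKM in mimic NC 1 and 2, and 7.07 and 7.39 RPKM in miR-217 mimic 1 and 2. GABARAPL1, at chr12:10212458-10223130 on the plus strand, encodes an ATG8 protein of the GABARAP branch. It measured 10.9 and 8.75 RPKM in mimic NC 1 and 2, and 9.99 and 6.73 RPKM in miR-217 mimic 1 and 2. GABARAPL1 thus lay above MAP1LC3B in both libraries numbered 1 and below it in both numbered 2. Its mean was 10.5 ± 0.658 RPKM in number 1 and 7.74 ± 1.43 RPKM in number 2 (SD, n = 2 each), a log2 difference of -0.40 with a standard error of 0.09 and a 95% interval of -0.64 to -0.16, and it was not called (limma, adjusted p 0.0643). It passed that line in 3 of the alternatives, at an adjusted p of 0.0425 with a minimum mean of 5 RPKM, 0.012 with voom on recovered reads and 0.0122 without mimic NC 2, all in limma. The difference for MAP1LC3B was 0.10, with a standard error of 0.07 and an adjusted p of 0.388 in limma. The bases that GABARAPL1 shared with an antisense gene were 8.05% of its exons, and those of MAP1LC3B 2.82%.

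ATG12, ATG5 and ATG16L1 form the complex that attaches ATG8 proteins to the membrane: ATG12 is a ubiquitin-like protein joined to ATG5, and ATG16L1 holds the pair at the growing membrane. ATG12, at chr5:115828200-115841858 on the minus strand, measured 3.76 and 4.37 RPKM in mimic NC 1 and 2, and 3.77 and 4.7 RPKM in miR-217 mimic 1 and 2. ATG5, at chr6:106045423-106325820 on the minus strand, measured 4.49 and 3.73 RPKM in mimic NC 1 and 2, and 4.05 and 3.31 RPKM in miR-217 mimic 1 and 2. ATG16L1, at chr2:233210051-233295674 on the plus strand, measured 4.21 and 4.19 RPKM in mimic NC 1 and 2, and 4.08 and 3.87 RPKM in miR-217 mimic 1 and 2. The number divided ATG12 and ATG5 in opposite directions, and left ATG16L1 with overlapping libraries. The log2 differences, number 2 minus number 1, were 0.22 for ATG12, -0.22 for ATG5 and -0.03 for ATG16L1, each with a standard error of 0.08, and limma's adjusted p were 0.146, 0.135 and 0.783. None of the 3 was called. ATG5 shared 10.7% of its exon bases with a gene annotated on the same strand, AL022067.1, all 594 of whose exon bases lie in those of ATG5. AL022067.1 had 723 and 443 reads in mimic NC 1 and 2 and 612 and 311 in miR-217 mimic 1 and 2, where ATG5 had 1443, 979, 1197 and 600 reads, and its log2 difference, number 2 minus number 1, was -0.32 (limma, adjusted p 0.0697). A read on the exon bases of AL022067.1 also lies on exon bases of ATG5. In mimic NC 1, up to 723 of the 1443 reads of ATG5 could thus be the same reads. AL022067.1 had reads although it has no exon bases outside those of ATG5, so reads on shared bases were not simply left out. Whether each of them was counted for both genes is not given in the sources used here. The part of the overlap in the ATG5 values was not tested. ATG12 shared 4.25% of its exon bases with AP3S1 on the other strand.

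ULK1, the kinase that starts autophagy when nutrients or energy run low, lies at chr12:131894651-131923167 on the plus strand. It measured 4.26 and 4.09 RPKM in mimic NC 1 and 2, and 3.13 and 3.75 RPKM in miR-217 mimic 1 and 2. BECN1, at chr17:42810134-42833350 on the minus strand, encodes beclin 1, the scaffold of the PI3-kinase complex, and measured 12.7 and 15.4 RPKM in mimic NC 1 and 2, and 12.5 and 13.4 RPKM in miR-217 mimic 1 and 2. WIPI1, at chr17:68420948-68457513 on the minus strand, encodes a protein that reads the lipid made by that complex. It measured 5.42 and 5.68 RPKM in mimic NC 1 and 2, and 5.35 and 5.32 RPKM in miR-217 mimic 1 and 2. TFEB, at chr6:41683978-41736259 on the minus strand, encodes the transcription factor that drives many lysosomal and autophagy genes. It measured 1.94 and 2.1 RPKM in mimic NC 1 and 2, and 1.74 and 1.56 RPKM in miR-217 mimic 1 and 2. BECN1 was the one gene of these 4 whose libraries were divided by the number, with a log2 difference of 0.18 and a standard error of 0.08 (limma, adjusted p 0.194). The differences of ULK1 (0.08), WIPI1 (0.03) and TFEB (-0.01) were within their standard errors of 0.10, 0.07 and 0.10, with limma's adjusted p from 0.615 to 0.942. BECN1 shared 17.1% of its exon bases and WIPI1 28.1% with genes on the other strand, and ULK1, ATG16L1 and TFEB shared none. Of the genes that overlap WIPI1, RP11-120M18.2 was far higher than WIPI1 itself, at 113 to 131 RPKM, and PSME3, which overlaps BECN1, measured 23.5 to 26.1 RPKM. The part of these overlaps in the members' values was not tested. For TFEB, the level of its RNA says nothing of the movement of its protein into the nucleus, by which its activity is mainly set.

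**Figure D2:**
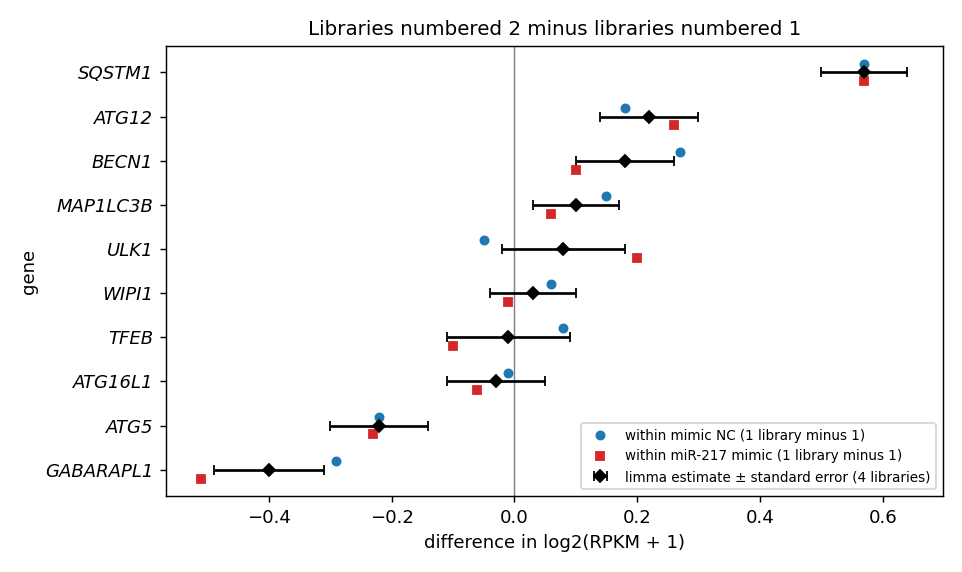
Difference in log2(RPKM + 1) between libraries numbered 2 and libraries numbered 1 for each of the 10 genes; black diamonds with bars are the limma estimate and its standard error over the 4 libraries, and blue circles and red squares the same difference between the 2 mimic NC libraries and between the 2 miR-217 mimic libraries. SQSTM1 is at 0.57 in both pairs, GABARAPL1 is at -0.29 and -0.51, and ULK1, WIPI1 and TFEB have their pairs on opposite sides of 0.

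The promoter windows of the members were read for motifs of factors that act on autophagy genes, 250 bases before to 50 after each RefSeq start site (15 windows of the 10 genes, 35116 windows in all, both strands, GRCh38.p14). The TFEB E-box CACGTG (7.26% of all windows), the composite ATF4 and C/EBP motif TGATGNAA (3.62%) and the FOXO motif TGTTTAC (3.42%) were in none of the members' windows. The antioxidant response element TGACNNNGC (13.3%) was in the window of MAP1LC3B, and the cyclic AMP response element TGACGTCA (1.85%), which was added after the windows had been read, was in that of GABARAPL1. These 2 windows are shown in 30 bases each, at chr16:87392280-87392309 and chr12:10212836-10212865 on the plus strand, with the match in capitals. They are followed by 100 exon-free bases upstream of a start site of SQSTM1, the member called between the numbers, at chr5:179820659-179820758 on the plus strand, which held none of the 5 motifs.
MAP1LC3B: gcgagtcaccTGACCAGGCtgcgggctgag
GABARAPL1: ggctcgcggggTGACGTCAcagcccgacgc
SQSTM1: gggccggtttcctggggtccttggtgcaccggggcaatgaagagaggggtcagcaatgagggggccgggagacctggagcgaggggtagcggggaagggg
Both TGACNNNGC and TGACGTCA begin with TGAC, so 1 stretch of bases can hold parts of both. A missing match says only that these letters are not in these windows.

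To set SQSTM1 and the other members among the rest of the pathway, 93 genes in 9 lists by role were read, of which 85 were tested and 75 of those were not members. Among the 75, 9 were called higher in number 2 and 2 lower, while 8.38% of all genes tested were called in either direction. None of the 4 tested genes of the ULK complex, the 8 of the PI3-kinase complex, the 9 of membrane supply, the 4 of the ATG8 family or the 5 of fusion with lysosomes was called. The conjugation machinery had 1 of 10 higher, the lysosomal genes 2 of 22 higher, the transcription factors 2 of 8 higher and 1 lower, and the cargo receptors 5 of 15 higher and 1 lower.

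The cargo receptors called higher were CCPG1, SQSTM1, OPTN, CALCOCO2 and TAX1BP1, of which the last 3 are named after their values were seen because the count is small. OPTN, CALCOCO2 (NDP52) and TAX1BP1 are, like SQSTM1, receptors that bind ubiquitin-coated cargo, and CCPG1 is a receptor for autophagy of the endoplasmic reticulum. CCPG1 measured 76.2 and 74 RPKM in number 1 and 143 and 135 RPKM in number 2, a log2 difference of 0.88 (standard error 0.07, limma adjusted p 0.0209), and 39.3% of its exon bases were shared, most of them with the read-through gene DYX1C1-CCPG1. OPTN was higher by 0.45 (adjusted p 0.0461), CALCOCO2 by 0.40 (0.0441) and TAX1BP1 by 0.37 (0.0494) on the log2 scale in limma, so the last 3 stood close to the line. In each of these 5 genes both libraries numbered 2 lay above both numbered 1, as in 26.9% of all genes tested. The genes were picked by the call, which favours this pattern, so it is no separate support. NBR1, the receptor closest in build to SQSTM1 (named after its values were seen), measured 21.8 and 19.9 RPKM in number 1 and 21.6 and 19.1 RPKM in number 2. NCOA4, the receptor that sends ferritin to lysosomes, went the other way, from 41.6 and 39.5 RPKM in number 1 to 27.2 and 22.7 RPKM in number 2, a log2 difference of -0.68 (limma adjusted p 0.03). Without mimic NC 1, without miR-217 mimic 1 or without the filter on low genes, 0 of the receptors were called higher. All 5 differences stayed positive there, from 0.42 (CALCOCO2) to 0.90 (CCPG1) without mimic NC 1, from 0.32 (TAX1BP1) to 0.86 (CCPG1) without miR-217 mimic 1, and from 0.37 (TAX1BP1) to 0.88 (CCPG1) without the filter, with limma's adjusted p from 0.104 to 0.364. Over all genes, 4 were called higher and 5 lower without mimic NC 1, and 6 and 7 without miR-217 mimic 1.

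Of the other genes called, ATG3, the enzyme that passes ATG8 proteins to the lipid, was higher in number 2 by 0.47 on the log2 scale (47.6 and 50 RPKM against 64.4 and 71.6 RPKM, limma adjusted p 0.0388). The lysosomal proteases CTSL and CTSD were higher by 0.74 and 0.59 (limma adjusted p 0.0268 and 0.0287). CTSL went from 218 ± 1.4 RPKM to 365 ± 0.281 RPKM (SD, n = 2 each), and CTSD from 34 and 33.2 RPKM to 51.4 and 50.7 RPKM, with 52.7% of the CTSD exon bases shared with other annotated genes. The other 20 lysosomal genes were not called. Among the transcription factors, DDIT3 had the widest gap, at 7.4 and 6.87 RPKM in number 1 and 30.8 and 29.8 RPKM in number 2 (log2 difference 1.94, limma adjusted p 0.0112), and 28% of its exon bases were shared with MARS on the other strand. ATF4 measured 54.4 and 57.4 RPKM in number 1 and 123 and 121 RPKM in number 2 (1.11, limma adjusted p 0.0205). MITF, a relative of TFEB, was lower by 0.47 (13.2 and 13.3 RPKM against 9.11 and 9.5 RPKM, limma adjusted p 0.0392). NFE2L2 (0.04), TFE3 (0.08), FOXO3 (0.09) and FOXO1 (0.38) were not called, as TFEB was not. ATF4 and DDIT3, both factors of the integrated stress response, moved with the number beside SQSTM1, and their part in its difference was not tested.

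**Figure D3:**
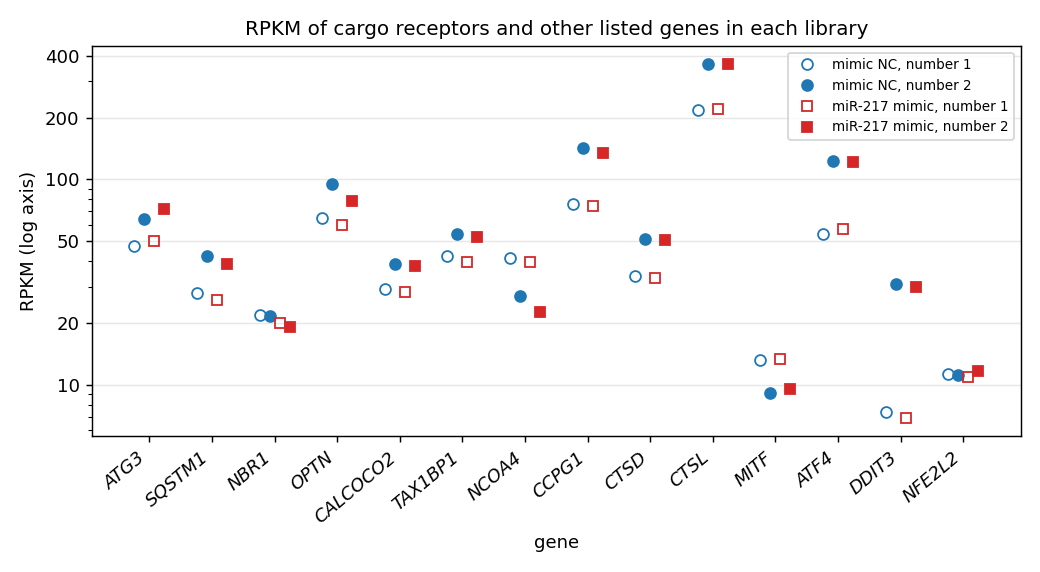
Level of 14 listed pathway genes in the 4 libraries, in RPKM on a log axis; symbols mark group and number, open for number 1 and filled for number 2. The filled points lie above the open ones for SQSTM1, OPTN, CALCOCO2, TAX1BP1, CCPG1, ATG3, CTSD, CTSL, ATF4 and DDIT3, below them for NCOA4 and MITF, and among them for NBR1 and NFE2L2.

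The second comparison set the 2 miR-217 mimic libraries against the 2 mimic NC libraries, as the study did in its search for miR-217 targets. Here limma was run on the same scale, with no term for the number. None of the 13871 genes passed an adjusted p under 0.05 (0%), and none of the 10 members did, each with an adjusted p of 1. A second rule therefore took an unadjusted p under 0.05 together with a log2 difference of at least 0.32. By that rule 0 members were called higher and 0 lower, beside 0.476% and 0.67% of all genes (66 and 93 genes), and 165 genes had an unadjusted p under 0.05. With median centring the split of all genes turned from 66 higher and 93 lower to 88 and 77, so no direction for the genes as a whole is read here.

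In the members the estimates were small and mostly below 0. Of the 10, 9 had a negative difference, against 7714 of the 13871 genes, with a median of -0.12 on the log2 scale against -0.017 over all genes. In 5 members, MAP1LC3B, ULK1, WIPI1, ATG16L1 and TFEB, both miR-217 mimic libraries were below both mimic NC libraries, and in 0 were both above, beside 13.5% and 9.72% of all genes. MAP1LC3B averaged 8.68 ± 0.69 RPKM in mimic NC and 7.23 ± 0.229 RPKM with the mimic (SD, n = 2 each), a change of -16.7%, or -0.23 on the log2 scale with a standard error of 0.12 and a limma unadjusted p of 0.115. ULK1 averaged 4.17 ± 0.125 and 3.44 ± 0.444 RPKM (-17.6%, log2 difference -0.22, limma unadjusted p 0.147), and TFEB 2.02 ± 0.113 and 1.65 ± 0.129 RPKM (-18.6%, log2 difference -0.19, limma unadjusted p 0.175). These 3 differences did not pass the test. The 95% intervals ran from -0.55 to 0.08 for MAP1LC3B, from -0.56 to 0.11 for ULK1 and from -0.51 to 0.12 for TFEB.

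For SQSTM1 the mimic difference was -0.12 in number 1 and again -0.12 in number 2, and the overall estimate of -0.12 carried a standard error of 0.29 and a 95% interval of -0.87 to 0.63 (limma unadjusted p 0.696), since the fit without the number counts the gap between numbers as spread. GABARAPL1 had the same feature, at -0.23 with a standard error of 0.22 (limma unadjusted p 0.352). ATG12, the member with a full seed match, was the one with an estimate above 0, at 0.04 with a standard error of 0.15. ATG5, with its 2 matches to TGCAGTA, was at -0.13 with a standard error of 0.15, with differences of -0.12 in number 1 and -0.13 in number 2. WIPI1 (-0.05), ATG16L1 (-0.07) and BECN1 (-0.11) had differences below their standard errors of 0.11, 0.11 and 0.14.

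**Figure D4:**
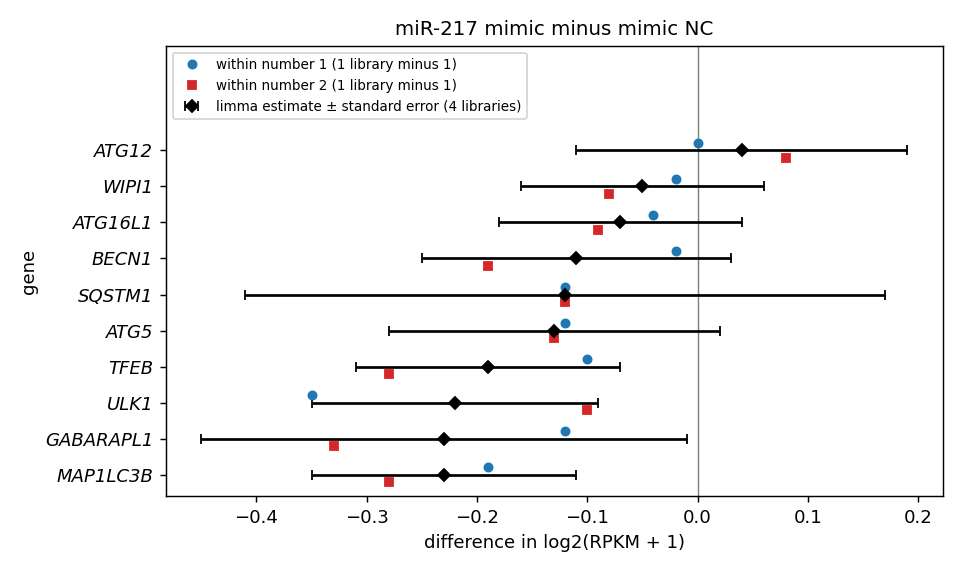
Difference in log2(RPKM + 1) between miR-217 mimic and mimic NC for each of the 10 genes; black diamonds with bars are the limma estimate and its standard error over the 4 libraries, and blue circles and red squares the difference within number 1 and within number 2. The estimates run from -0.23 for MAP1LC3B to 0.04 for ATG12, and the widest bar is that of SQSTM1, with a standard error of 0.29.

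Of the 75 other listed pathway genes, 0 were called higher with the mimic and 2 lower, BNIP3L and MCOLN1. Over all genes tested, the same rule called 0.476% higher and 0.67% lower. BNIP3L (NIX), a receptor for the removal of mitochondria, measured 7.35 and 7.2 RPKM in mimic NC and 4.81 and 4.19 RPKM with the mimic, a log2 difference of -0.59 with a standard error of 0.12 (limma, unadjusted p 0.00535, adjusted p 1). MCOLN1, a calcium channel of the lysosomal membrane, measured 6.99 and 7.02 RPKM in mimic NC and 4.78 and 4.97 RPKM with the mimic, a log2 difference of -0.45 with a standard error of 0.11 (limma, unadjusted p 0.0111, adjusted p 1). BNIP3L passed both lines with each library left out in turn, whereas MCOLN1 had an unadjusted limma p of 0.073 without mimic NC 1, 0.0778 without mimic NC 2 and 0.0508 without miR-217 mimic 1. The 3'UTR of BNIP3L held no ATGCAGT and 1 TGCAGTA, and that of MCOLN1 neither. Of the 85 tested pathway genes, 12 (14.1%) held ATGCAGT, near the 14.5% of all tested genes, and their median difference with the mimic was -0.05, as it was in the 73 without it.

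**Figure D5:**
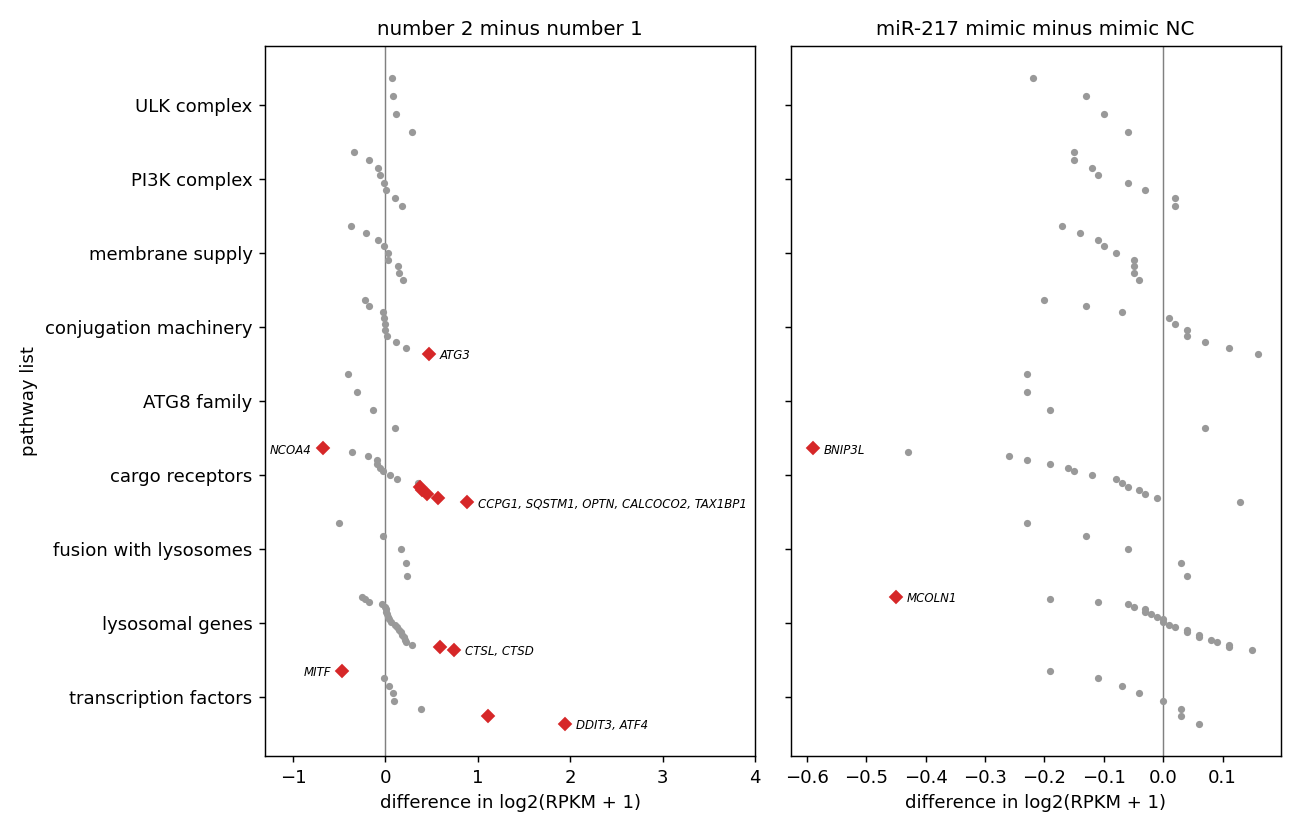
Differences in log2(RPKM + 1) of the 85 tested pathway genes by role list, number 2 minus number 1 on the left and miR-217 mimic minus mimic NC on the right, on separate scales; each point is a gene, spread vertically within its list in order of value, and red diamonds with names are genes past the rule of that comparison (left, adjusted p under 0.05; right, unadjusted p under 0.05 and a log2 difference of at least 0.32). On the left 10 genes are called higher and 2 lower, 6 of these 12 among the cargo receptors, and on the right 2 genes are called, both lower.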

How the data were processed

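RNA was sequenced from 4 MDA-MB-231 libraries. Per the labels, TRIzol was used for extraction and a stranded kit for the libraries. The submitters' processing notes name Trimmomatic 0.36, featureCounts, Subread 1.5.1, edgeR 3.12.1 and the build hg38, and the aligner and the strand setting are not given in the sources used here. The authors deposited RPKM values with exon coordinates and gene lengths. RPKM times length summed to 1000000 in each library, and 100% of nonzero values were whole multiples of 1 read within 0.01, so reads were recovered for depth and for the voom alternative.

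Two-sided tests were run in limma 3.58.1 (R 4.3.3; lmFit, eBayes with trend) on log2(RPKM + 1) for genes with a mean of at least 1 RPKM, with Benjamini-Hochberg adjustment over all 13871 genes. A difference on this scale understates the change of low genes. Groups and numbers came from the sample labels. The members, lists and tests were chosen with earlier results of these data known. All members were named; of the lists, at most the 2 largest called genes in each direction per list were named, besides the transcription factors. OPTN, CALCOCO2, TAX1BP1 and NBR1 were named outside this rule, after their values were seen. Shared exon bases came from the table's coordinates, and RETREG1 was found under FAM134B. Listed genes below 1 RPKM (ULK2, MAP1LC3A, MAP1LC3B2, MAP1LC3C, TOLLIP, EPG5, TECPR1 and ZKSCAN3) were not tested. The fits were tested on simulated data with independent counts. For the mimic fit these held no effect of the number, so they cannot show how that fit behaves in the present libraries. Sequences came from RefSeq and GENCODE 29; proteins were not analysed here. Alternatives were another pseudocount, other filters, median centring, voom on recovered reads, a replicate block, no group term and leaving out each library.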

Additional observations from a re-analysis of the deposited data

Results flagged for a closer look

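In 3 of the 10 genes the number moved the 2 groups in opposite directions. For ULK1 the log2 difference, number 2 minus number 1, was -0.05 in mimic NC and 0.20 in miR-217 mimic, so that the second exceeded the first by 0.25. For WIPI1 it was 0.06 in mimic NC and -0.01 in miR-217 mimic (-0.06 apart from unrounded values), and for TFEB 0.08 and -0.10 (-0.18 apart). With 1 library behind each value these differences between the groups were not tested.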

How the results depend on the processing

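With the mimic, 159 genes passed both lines. The count was 314 with no filter, 47 at a mean of at least 5 RPKM, 82 with voom on recovered reads and 93 to 866 leaving out 1 library (866 without miR-217 mimic 1). No gene passed an adjusted p under 0.05 in limma except 1 (NDRG1, named after its value was seen, adjusted p 0.0408) with voom and a replicate block. For the number, 512 genes were higher and 651 lower. These became 1 and 2 with no filter (STC2 against FOS and EGR1, named after their values were seen), 1394 and 1888 with voom, 4 to 1537 and 5 to 2394 leaving out 1 library, and 780 and 749 with median centring, which turns the split. Cargo receptors called higher went from 5 to 0 with no filter, 3 with no group term and 0 to 5 leaving out 1 library. The lone library of an arm was then assumed to vary like the other arm, and the fit had a single term.

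The SQSTM1 number difference stayed positive, at 0.57 with no filter (not called) and 0.51 to 0.63 leaving out 1 library. Of 200 results for members under alternatives, 181 kept direction and call, 3 lost the call, 3 gained it and 13 changed sign. The sign changes were TFEB for the number at 0.02 with median centring and, leaving out 1 library, the ranges -0.08 to 0.17 (ATG12), -0.41 to 0.17 (SQSTM1), -0.24 to 0.03 (BECN1) and -0.48 to 0.03 (GABARAPL1) for the mimic, and -0.15 to 0.13 (TFEB), -0.04 to 0.24 (MAP1LC3B), -0.01 to 0.07 (WIPI1), -0.10 to 0.25 (ULK1) and -0.08 to 0.01 (ATG16L1) for the number. The causes were not tested. ULK1, ATG5, ATG12, ATG16L1 and TFEB fell below a mean of 5 RPKM and have no value there.

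Libraries with the same number deviated together (correlation across genes 0.68), but the labels do not say that a number marks shared material. With a replicate block 487 genes passed both lines with the mimic, and with voom and the block 502. No member did in either. With the block alone, MAP1LC3B (-0.23) had an unadjusted limma p of 0.0311 (adjusted 0.633). With voom and the block, MAP1LC3B (-0.26), ULK1 (-0.30) and GABARAPL1 (-0.24) had unadjusted limma p of 0.0135, 0.0195 and 0.0336 (adjusted 0.473, 0.501 and 0.526). TFEB, with 287 to 636 reads, is the member most limited by depth.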
